A study of Mus musculus with 14 samples.

Results

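Hmga1, Ets1, Sox9 and Tcim are 4 genes for regulators of transcription that were picked from these data because they were higher in satellite cells carrying a Fos reporter signal (FosGFP+) and lower in satellite cells labelled as lacking Fos (FoscKO). They were selected on the measured values of both comparisons, and the rule gives no threshold. Hmga2, Ets2 and Sox4 were set beside them as relatives of the same families, whatever their values. All 7 genes had 1 row in each count table, among 49671 genes in all, and all 7 passed the filter on low counts in both tables.

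Satellite cells are the stem cells of skeletal muscle. RNA of freshly sorted cells was sequenced in 14 libraries of 1000 cells each, and the source was muscle of the hind limb, chest and upper arm (triceps) of undisturbed C57BL/6J mice. The gate kept cells with B1-Integrin and CXCR4 and without CD45, CD31, CD11b, Ter119 and Sca1. From 4-month-old FosGFP mice there were 4 FosGFP+ libraries and 4 FosGFP- libraries, and the series text gives 4 mice. From 6-month-old mice there were 3 libraries labelled FoscKO and 3 labelled Control, and the series text gives 3 mice and a FosGFP+ gate for both arms. The labels do not say which mouse gave which library, so p-values measure the spread between libraries, which may be partly technical. The construct of the reporter, the Cre that drives the deletion and the genotype of Control beyond that word are not given in the sources used here.

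FOS and its partners of the JUN family form the transcription factor AP-1, which is induced within minutes when a satellite cell is disturbed. The picked genes act beside or below such a signal in several tissues. HMGA proteins bind AT-rich DNA and bend it so that other factors can assemble there. ETS1 and ETS2 bind a GGAA core, are phosphorylated by MAP kinases and bind together with AP-1 at composite sites in protease genes. SOX9 is the master factor of cartilage and is active in several adult stem cells, and SOX4 belongs to another branch of the SOX family that acts in progenitors. TCIM, studied mainly in human cells, binds Chibby (CBY1), an antagonist of beta-catenin, and so enhances Wnt signalling there.

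Each FosGFP+ library had 3806776 to 5983711 counts in genes, each FosGFP- library 2652230 to 4067543, each FoscKO library 4797954 to 10241655 and each Control library 5326686 to 6930696. Levels are given as CPM, counts brought to a common library size by TMM, a method that sets most genes equal between libraries. The 2 datasets were counted and scaled in separate tables, so levels were tested only within a table. The summed level of 10 satellite cell markers was 8983 to 12488 CPM in FosGFP+, 4300 to 6951 CPM in FosGFP-, 6715 to 12389 CPM in FoscKO and 6246 to 9331 CPM in Control. None of them was at 0 in a group. Sdc4 alone averaged 5315.9 CPM in FosGFP+ and 2030.5 CPM in FosGFP-, the largest part of those sums. In FosGFP+ over FosGFP-, 7 of the 10 markers had a log2 fold change above 0. The others were Pax7 (52.0 CPM in FosGFP+ and 70.6 CPM in FosGFP-), Cdh15 (352 and 374 CPM) and Calcr (141 and 201 CPM). An even background, the reads per exonic kb found in odorant, pheromone and taste receptor genes, made up 6.48% to 10.8% of gene counts in FosGFP+ and 13.1% to 19.6% in FosGFP-. They made up 3.99% to 11.8% in FoscKO and 9.15% to 10.6% in Control, with the lowest share in FoscKO replicate 1.

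Fos itself, the gene named by both labels, was the check of the libraries. Its level was 5146, 5299, 3041 and 4521 CPM in FosGFP+, against 12648, 11379, 7762 and 11096 CPM in FosGFP-, lower in every reporter-positive library (log2 fold change -1.25 ± 0.21 (SE), adjusted p = 9.33e-04 by edgeR's quasi-likelihood test). It was 8357, 2847 and 3766 CPM in the libraries labelled FoscKO, against 4992, 4974 and 4685 CPM in Control. Those groups overlapped (log2 fold change 0.03 ± 0.39, adjusted p = 0.996, and -0.56 without FoscKO replicate 1). Fos mRNA was thus lower in cells sorted as reporter-positive and was not called lower in FoscKO. A count per gene does not resolve a deleted piece of it, so the groups are called here by their labels. FoscKO replicate 1 had the highest Fos level of its group, and fold changes and medians that move with it are given with and without it.

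Hmga1, the gene of an AT-hook chromatin protein, had the largest fold change of the 7 genes in both comparisons. Its level was 35.8, 51.9, 44.7 and 40.8 CPM in FosGFP+, against 12.9, 8.17, 10.2 and 3.23 CPM in FosGFP-. Every FosGFP+ library lay above every FosGFP- library, and the FosGFP- libraries differed 4-fold among themselves. Hmga1 was at 5.35, 3.51 and 3.69 CPM in FoscKO, against 26.0, 17.6 and 17.4 CPM in Control. Every FoscKO library lay below every Control library. The log2 fold changes were 2.31 ± 0.33 for FosGFP+ over FosGFP- and -2.27 ± 0.43 for FoscKO over Control, given with no test because the gene was selected on them. Here and below, a smaller number of cells with a transcript and less transcript per cell cannot be told apart, since each library is a bulk of cells.

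Hmga1 was also the picked gene with the fewest reads, 153 to 253 counts per library in FosGFP+, 11 to 59 in FosGFP-, 19 to 40 in FoscKO and 108 to 140 in Control. The even background would give 6.65 to 8.26 counts per library in FosGFP+ and 7.98 to 9.17 in FosGFP-. FosGFP- replicate 4, with 11 counts, stood at 1.24 times its expected background. With the background subtracted, the log2 fold change was 2.52 for FosGFP+ over FosGFP- and -2.88 for FoscKO over Control. Hmga1b, a near-identical copy of Hmga1 on chromosome 11, had 2 to 5 counts per library in FosGFP+, 0 to 1 in FosGFP-, 1 to 2 in FoscKO and 2 to 4 in Control. Reads that fit both copies cannot be assigned to either, so the level of Hmga1 is uncertain by an amount not measured here.

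Hmga2, which encodes the sister protein best known from embryonic tissue and from the muscle progenitors of young animals, was close to undetected. Its level was 1.87, 1.85, 4.19 and 3.42 CPM in FosGFP+, against 3.50, 3.95, 2.82 and 6.45 CPM in FosGFP-. It was 0.134, 1.66 and 4.05 CPM in FoscKO, against 3.52, 4.28 and 4.84 CPM in Control. The groups overlapped in both comparisons. These levels are 8 to 16 counts in FosGFP+, 10 to 22 in FosGFP-, 1 to 34 in FoscKO and 19 to 32 in Control. The even background over its 6772 exonic bases would give 21.2 to 26.3, 25.4 to 29.2, 22.3 to 31.6 and 26.6 to 35.8 counts in the same 4 groups. Hmga2 exceeded its background in 0 of 4 FosGFP+, 0 of 4 FosGFP-, 1 of 3 FoscKO and 0 of 3 Control libraries. The log2 fold change was -0.56 ± 0.51 for FosGFP+ over FosGFP- (adjusted p = 0.499) and -1.09 ± 0.83 for FoscKO over Control (adjusted p = 0.914), the second being -0.53 without FoscKO replicate 1, and expression of Hmga2 was not detectable above background at this depth.

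**Figure D1:**
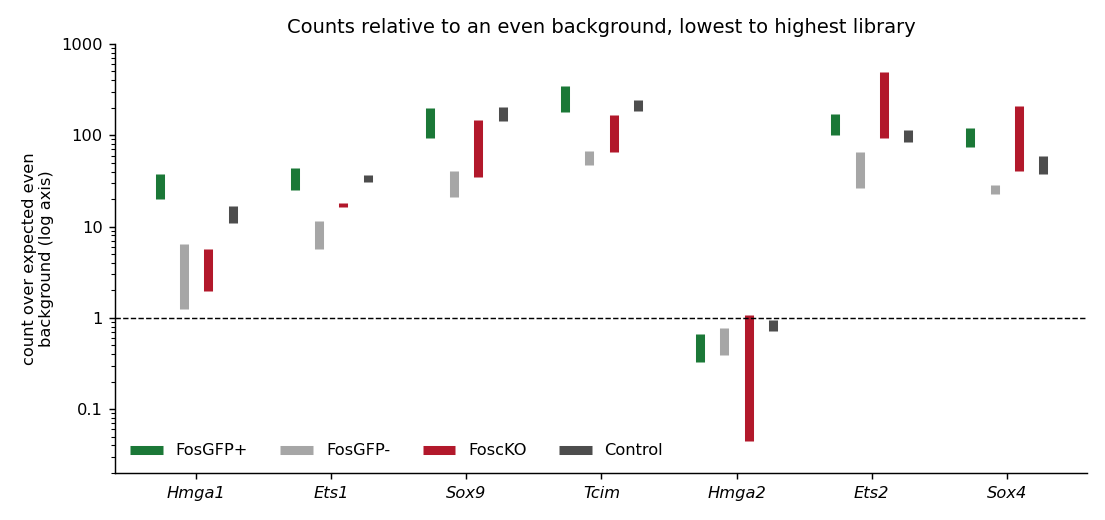
Count of each gene divided by the count that an even background would give, on a log axis, with a bar from the lowest to the highest library of each group (4 FosGFP+, 4 FosGFP-, 3 FoscKO and 3 Control libraries) and a dashed line where they are equal. Hmga2 lies at or under the line, Hmga1 reaches down to 1.24 times background in FosGFP-, and the other 5 genes are above 5 times background in all groups.

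The sequences before the start sites of this pair are shown because 1 gene of it was read well above background and the other was not. Both are from the RefSeq table of promoters (GRCm38.p6), 250 bases ending at the base before the start site, and the GC box GGGCGG is in capitals on either strand. The Hmga1 window is chr17:27556324-27556573 on the plus strand, the upstream one of 2 starts in the table, and its last 77 bases lie inside the GENCODE gene. The Hmga2 window is chr10:120476470-120476719 on the minus strand.
Hmga1: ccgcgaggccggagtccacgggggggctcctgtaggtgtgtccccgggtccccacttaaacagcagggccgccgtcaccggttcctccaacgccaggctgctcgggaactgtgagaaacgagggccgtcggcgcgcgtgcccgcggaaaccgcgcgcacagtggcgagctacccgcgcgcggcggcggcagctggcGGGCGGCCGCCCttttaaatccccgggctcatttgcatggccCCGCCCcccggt
Hmga2: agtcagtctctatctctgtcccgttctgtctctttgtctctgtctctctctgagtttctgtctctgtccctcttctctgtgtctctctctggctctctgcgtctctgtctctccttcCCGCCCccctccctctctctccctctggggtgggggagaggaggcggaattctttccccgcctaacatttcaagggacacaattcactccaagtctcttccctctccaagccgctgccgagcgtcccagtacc
The Hmga1 window was 72.8% G and C and held 3 GC boxes, 2 of them back to back without overlap, while the Hmga2 window was 56.4% G and C and held 1. GC boxes were in 32.7% of the 32851 promoter windows of the table. The AP-1 motif TGANTCA had 0 matches on either strand in both, and 6.75% of all windows hold it. The motif TGACGTCA, bound by CREB and some AP-1 dimers, also had 0 matches, against 1.55% of all windows.

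Other chromatin architectural genes were read beside this pair. Of 6 tested genes of the HMGB and HMGN classes, 2 were called higher in FosGFP+ and 0 lower, where edgeR called 10.3% of all 20698 tested genes higher and 1.85% lower. Hmgn1, a nucleosome binder, averaged 140 ± 26.9 CPM in FosGFP+ and 83.6 ± 11.3 CPM in FosGFP- (SD, n = 4 each; log2 fold change 0.74 ± 0.19 (SE), edgeR adjusted p = 0.0190). Hmgb2, a DNA-bending protein of dividing cells, averaged 17.5 ± 3.41 CPM in FosGFP+ and 8.09 ± 2.01 CPM in FosGFP- (SD, n = 4 each; edgeR adjusted p = 0.0321). Both calls depend on scaling: scaled by total counts, the adjusted p was 0.159 for Hmgn1 and 0.138 for Hmgb2. With TMM from genes of at least 50 CPM, edgeR called 0 of the 6 higher and 1 lower. With the background subtracted it called 0 in either direction, while the DESeq2 test called 4 higher and 0 lower of 7. Hmgb1 (adjusted p = 0.0723) and Hmgn2 (adjusted p = 0.0654) averaged 41.8 and 21.2 CPM in FosGFP+, against 26.6 and 11.7 CPM in FosGFP-. The median log2 fold change of the 6 genes was 0.70, against -0.18 over all genes tested. These genes have many processed copies in the genome, so their counts are uncertain. Between FoscKO and Control 0 of 7 were called, where edgeR called 0% of all genes, and 2 of 7 were higher without overlap, where 5.75% of all genes were. These were Hmgn1, at 137 ± 32.8 CPM in FoscKO and 97.6 ± 3.16 CPM in Control, and Hmgb3, at 3.33 ± 0.333 CPM in FoscKO and 2.32 ± 0.419 CPM in Control (SD, n = 3 each). The median was 0.42 against -0.04 over all genes, and 0.23 without FoscKO replicate 1. Per exonic kb, Hmga1 ranked second of the 9 HMG genes in FosGFP+ at 20.4 ± 3.19 CPM per kb, under Hmgn1 at 43.3 ± 8.35 (SD, n = 4), and its libraries overlapped with neither neighbour. In FoscKO it was not among the first 6.

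Ets1, a factor best known from lymphocytes, endothelium and invading cells, was separated between groups in the same 2 directions. It was at 199, 238, 195 and 265 CPM in FosGFP+, against 74.8, 114, 98.5 and 58.9 CPM in FosGFP-. It was at 67.1, 118 and 76.2 CPM in FoscKO, against 228, 212 and 197 CPM in Control. All FosGFP+ libraries were above all FosGFP- libraries, and all FoscKO libraries were below all Control libraries. The log2 fold changes were 1.37 ± 0.22 for FosGFP+ over FosGFP- and -1.29 ± 0.27 for FoscKO over Control, a description of the values that selected it. Ets1 is also an endothelial gene, and the summed level of 10 endothelial markers was 190 to 225 CPM in FosGFP+, 215 to 324 CPM in FosGFP-, 194 to 237 CPM in FoscKO and 164 to 208 CPM in Control. Of 9 tested endothelial markers, 0 had a log2 fold change above 0 in FosGFP+ over FosGFP-, where Ets1 was higher. Of these, 4 were lower without overlap, where 6.45% of all genes were. For FoscKO over Control, 2 of 9 were above 0 and 1 was lower without overlap, where 6.47% of all genes were. That marker was Pecam1, named after its values were seen, at 7.71 ± 3.39 CPM in FoscKO and 16.0 ± 5.04 CPM in Control (SD, n = 3 each). Its log2 fold change was -1.06 ± 0.47 (SE, edgeR adjusted p = 0.890). The part of these markers in the values of Ets1 was not tested.

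Ets2, the closest relative of Ets1, was tested, since it was taken for its family. Its level was 603, 641, 538 and 645 CPM in FosGFP+, against 204, 273, 398 and 188 CPM in FosGFP-. Every FosGFP+ library was above every FosGFP- library, and the gene was called higher (log2 fold change 1.19 ± 0.22, edgeR adjusted p = 0.0020). In the other dataset Ets2 was at 1255, 454 and 590 CPM in FoscKO, against 476, 347 and 369 CPM in Control. The groups overlapped, and FoscKO replicate 1 stood far above the rest. The log2 fold change of 0.95 ± 0.36 was not called (adjusted p = 0.786), and it was 0.40 without FoscKO replicate 1. The mean of Ets2 in FoscKO was above that of Control, and the mean of Ets1 was below it.

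The relation within this pair can be read inside each library, per exonic kb, where the scaling of libraries cancels. The ratio of Ets1 to Ets2 was 0.225, 0.254, 0.247 and 0.280 in FosGFP+, against 0.249, 0.286, 0.169 and 0.214 in FosGFP-, and these groups overlapped. It was 0.0365, 0.177 and 0.0880 in FoscKO, against 0.327, 0.417 and 0.363 in Control, and these did not overlap. FoscKO replicate 1 had the lowest ratio, and the other FoscKO libraries were also below all Control libraries. As Ets1 was selected on this contrast, no test is given. Ets2 was the most abundant of 26 ETS genes per exonic kb in all 4 groups, and its libraries did not overlap with the next gene in any. Ets1 was second in Control at 25.0 ± 1.87 CPM per kb, overlapping with Elk4, and in FoscKO it was not among the first 6.

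**Figure D2:**
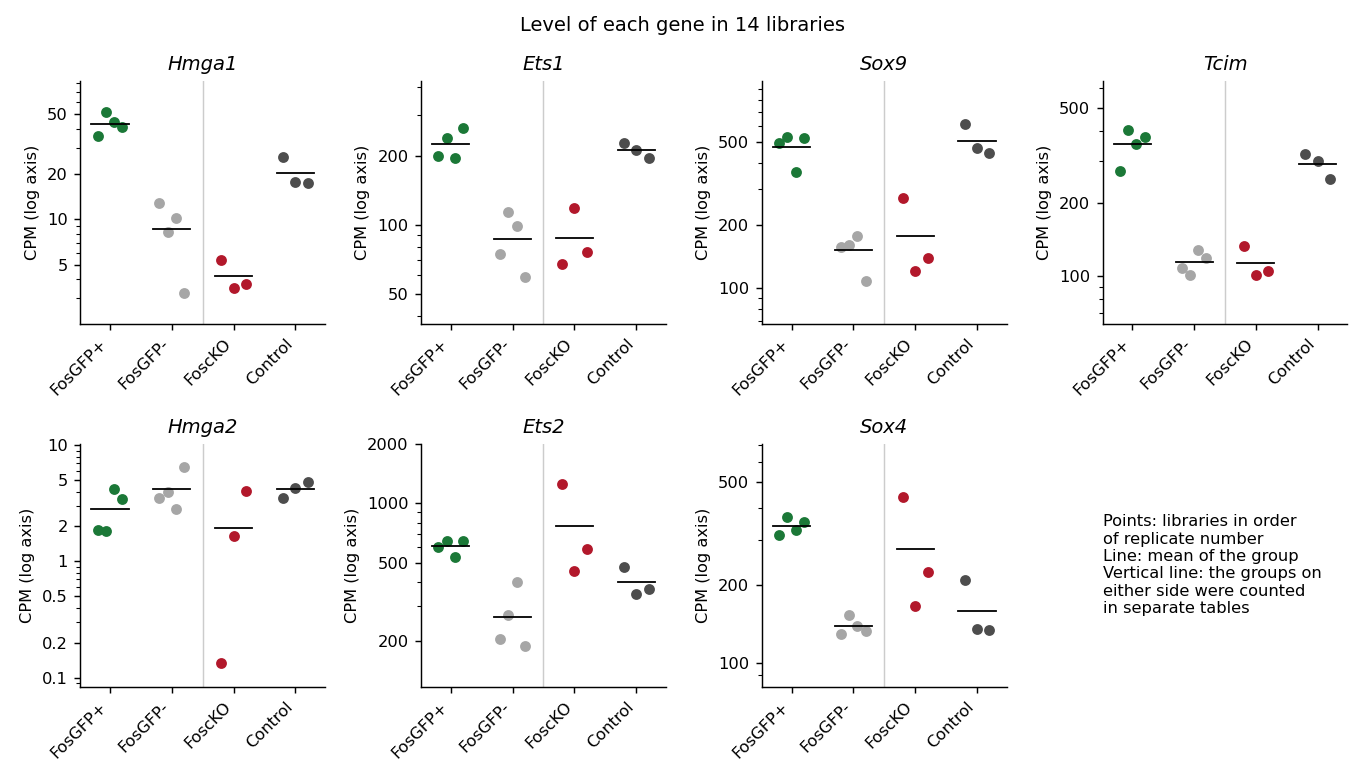
Level of the 7 genes in CPM on a log axis that differs between panels, with a point for each library of FosGFP+ (n = 4), FosGFP- (n = 4), FoscKO (n = 3) and Control (n = 3), and a line at the group mean. Hmga1, Ets1, Sox9 and Tcim are separated in both datasets, Ets2 and Sox4 in the FosGFP dataset but not in the other, and Hmga2 in neither, and FoscKO replicate 1 is the top FoscKO point of Sox9, Ets2 and Sox4.

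Of the other 19 tested ETS genes, 5 were called higher in FosGFP+ and 0 lower (10.3% and 1.85% of all genes), and 7 were higher without overlap, where 12.9% of all genes were. Elf2 averaged 163 ± 26.2 CPM in FosGFP+ and 64.4 ± 8.66 CPM in FosGFP- (SD, n = 4 each; log2 fold change 1.34 ± 0.19 (SE), edgeR adjusted p = 3.44e-04). Elk4, a partner of serum response factor at immediate early genes, averaged 171 ± 4.04 CPM in FosGFP+ and 76.0 ± 16.8 CPM in FosGFP- (SD, n = 4 each; edgeR adjusted p = 9.13e-04). Elf4 was called at 66.0 CPM in FosGFP+ and 23.1 CPM in FosGFP- (adjusted p = 0.0080). The repressor gene Etv6 was called at 124 CPM in FosGFP+ and 55.7 CPM in FosGFP- (adjusted p = 0.0083). Elf1, the fifth, named after its values were seen, had an adjusted p of 0.0233. Elf2, Elk4 and Elf4 were also called higher with DESeq2 size factors, total counts and TMM from genes of at least 50 CPM, while Elf4 was not with the background subtracted (adjusted p = 0.0739), and over the scalings of the edgeR fit the counts of the family ran from 6 higher and 0 lower with DESeq2 size factors to 3 higher and 2 lower with TMM from genes of at least 50 CPM. The DESeq2 test called 8 higher and 0 lower of 24 genes it tested. The median of the 19 genes was 0.21, against -0.18 over all genes, and it was -0.37 against -0.77 with that last scaling.

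In FoscKO over Control, edgeR called 0 of 21885 genes higher and 0 lower (0% each), with 1208 genes at an unadjusted p under 0.05. DESeq2 called 74 genes and limma-voom 6, and without FoscKO replicate 1 edgeR called 43. Groups are therefore described there by libraries that do not overlap, which 5.75% of all genes showed for higher and 6.47% for lower. Of the other 21 ETS genes tested there, 0 were higher without overlap and 1, Fli1, named after its values were seen, was lower, at 3.30 ± 0.539 CPM in FoscKO and 5.64 ± 0.898 CPM in Control (SD, n = 3 each). The 4 leading ETS genes of the other comparison overlapped. Elf2 averaged 117 ± 45.2 CPM in FoscKO and 64.8 ± 22.2 CPM in Control, and Elk4 averaged 127 ± 15.4 CPM in FoscKO and 136 ± 12.5 CPM in Control (SD, n = 3 each). The median of the 21 genes was 0.04, against -0.04 over all genes, and 0.22 without FoscKO replicate 1.

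**Figure D3:**
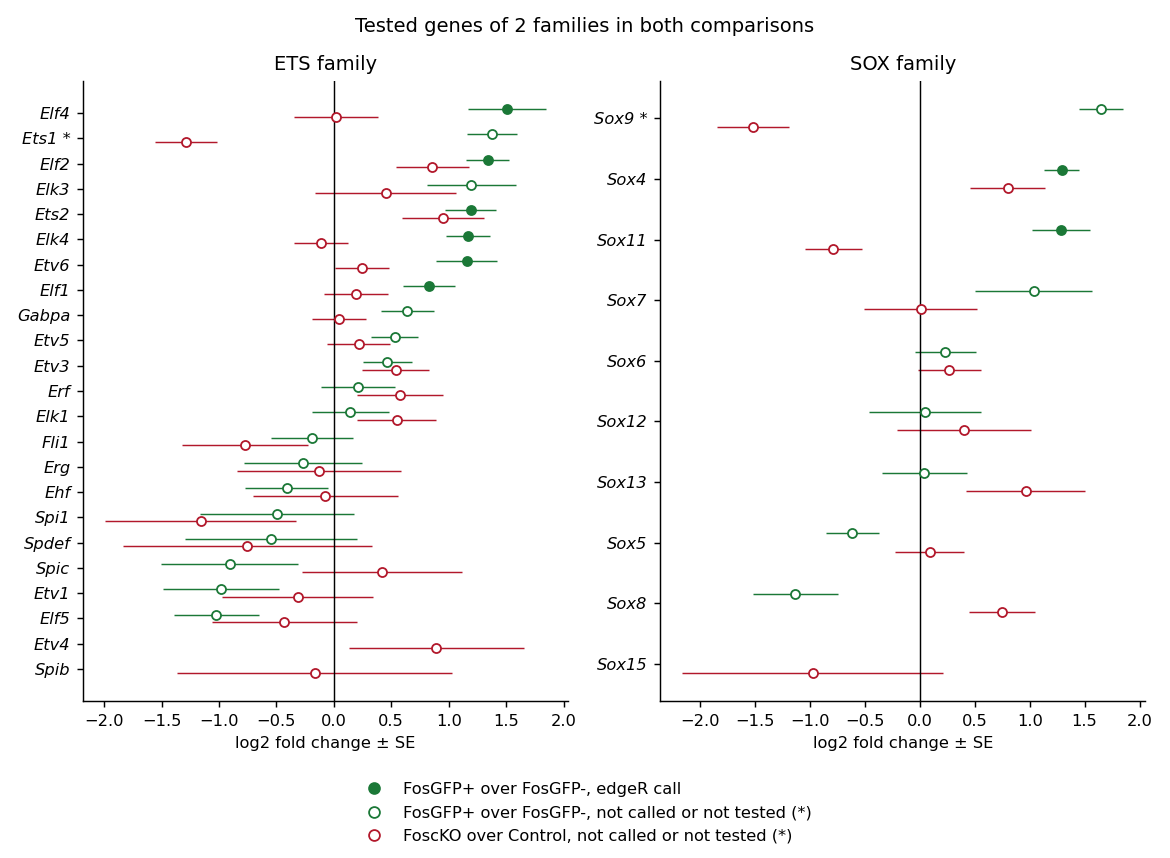
Log2 fold change with its SE for the tested ETS and SOX genes, in FosGFP+ over FosGFP- (green, filled where edgeR called the gene at an adjusted p under 0.05) and in FoscKO over Control (red), in the order of the first comparison, with genes tested only in FoscKO over Control at the foot. Ets1 and Sox9, marked with a star, were selected on both values and not tested, and among genes called in green only Sox11 has a red value below -0.5.

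Genes of pericellular proteolysis, many with ETS and AP-1 sites in front of them, are the best-known joint targets. Of 6 tested, 2 were called higher in FosGFP+ and 0 lower (10.3% and 1.85% of all genes). Plaur, the urokinase receptor, averaged 383 ± 94.2 CPM in FosGFP+ and 122 ± 36.1 CPM in FosGFP- (SD, n = 4 each; log2 fold change 1.65 ± 0.23 (SE), edgeR adjusted p = 3.37e-04). Timp1, a metalloproteinase inhibitor, had 39.5 CPM in FosGFP+ and 16.4 CPM in FosGFP- (adjusted p = 0.0363). Timp1 was not called with total counts (adjusted p = 0.0941). With total counts and with TMM from genes of at least 50 CPM, edgeR called 1 of the 6 higher and 1 lower. Mmp3, named after its values were seen, was lower without overlap like 6.45% of all genes. It averaged 4.08 ± 2.14 CPM in FosGFP+ and 9.41 ± 2.01 CPM in FosGFP- (SD, n = 4 each, edgeR adjusted p = 0.0923). The gelatinase gene Mmp2 averaged 660 CPM in FosGFP+ and 493 CPM in FosGFP- (adjusted p = 0.165), and the membrane-bound protease gene Mmp14 averaged 110 CPM in FosGFP+ and 81.7 CPM in FosGFP- (adjusted p = 0.341). Between FoscKO and Control, 1 of 6 was lower without overlap, where 6.47% of all genes were, and Plaur, that gene, averaged 159 ± 44.5 CPM in FoscKO and 270 ± 31.4 CPM in Control (SD, n = 3 each; log2 fold change -0.77 ± 0.27 (SE), edgeR adjusted p = 0.769).

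Sox9 was at 494, 532, 359 and 523 CPM in FosGFP+, against 159, 162, 179 and 108 CPM in FosGFP-. It was at 271, 121 and 140 CPM in FoscKO, against 613, 469 and 446 CPM in Control. The groups were separate in both datasets, and the highest FoscKO library was replicate 1. The log2 fold changes that selected it were 1.65 ± 0.20 for FosGFP+ over FosGFP- and -1.52 ± 0.33 for FoscKO over Control, the second being -1.96 without FoscKO replicate 1. Tendon cells also express Sox9 during development, and 6 tenocyte markers summed to 354, 29.3, 659 and 40.2 CPM in FosGFP+, against 1076, 40.0, 549 and 247 CPM in FosGFP-. FosGFP+ replicate 3, with the highest sum of its group, had the lowest Sox9. In FosGFP-, replicate 3, with a sum of 549 CPM, had the highest Sox9 and replicate 4, with 247 CPM, the lowest. FosGFP- replicate 1, with the highest sum of 1076 CPM, lay between them at 159 CPM of Sox9. In the second dataset the sums were 27.3 to 45.4 CPM in FoscKO and 34.2 to 48.1 CPM in Control. All 6 markers were detected in every group, and their part in the result was not tested.

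Sox4, a SOXC factor of progenitors, was tested as the relative of Sox9. It was at 314, 367, 328 and 353 CPM in FosGFP+, against 130, 154, 139 and 134 CPM in FosGFP-. All FosGFP+ libraries were above all FosGFP- libraries with little spread, and Sox4 was called higher (log2 fold change 1.29 ± 0.16, edgeR adjusted p = 1.93e-04). It was at 441, 166 and 226 CPM in FoscKO, against 210, 136 and 134 CPM in Control. These overlapped, and the log2 fold change of 0.80 ± 0.35 was not called (adjusted p = 0.884) and was 0.30 without FoscKO replicate 1. In total, 2 of the 3 relatives were called higher in FosGFP+, where 10.3% of all genes were, and 0 of 3 were lower without overlap in FoscKO, where 6.47% of all genes were. The opposite strand of Sox4 carries Gm26735, which covers 54.6% of its exonic length and had 0 to 2 counts per library. Reads under both genes cannot be told apart by strand and may have been set aside as ambiguous, so the level of Sox4 per kb may be too low.

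The ratio of Sox9 to Sox4 per exonic kb was 1.82, 1.68, 1.27 and 1.72 in FosGFP+, against 1.41, 1.21, 1.49 and 0.938 in FosGFP-, with overlap. It was 0.713, 0.846 and 0.721 in FoscKO, against 3.39, 4.02 and 3.85 in Control. The FoscKO libraries sat close together, replicate 1 included, and far below Control. The order of the pair was Sox4 over Sox9 in each FoscKO library and Sox9 over Sox4 in each Control library. As Sox9 was selected for being lower in FoscKO, a lower ratio there was likely from the start, and no test is given. Sox9 was the first of 19 SOX genes per exonic kb in Control (123 ± 21.9 CPM per kb) and Sox4 the second (33.3 ± 9.00). In FoscKO Sox4 was first (57.9 ± 30.1) and Sox9 second (43.0 ± 19.7; SD, n = 3 each), and the libraries of those neighbours overlapped.

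**Figure D4:**
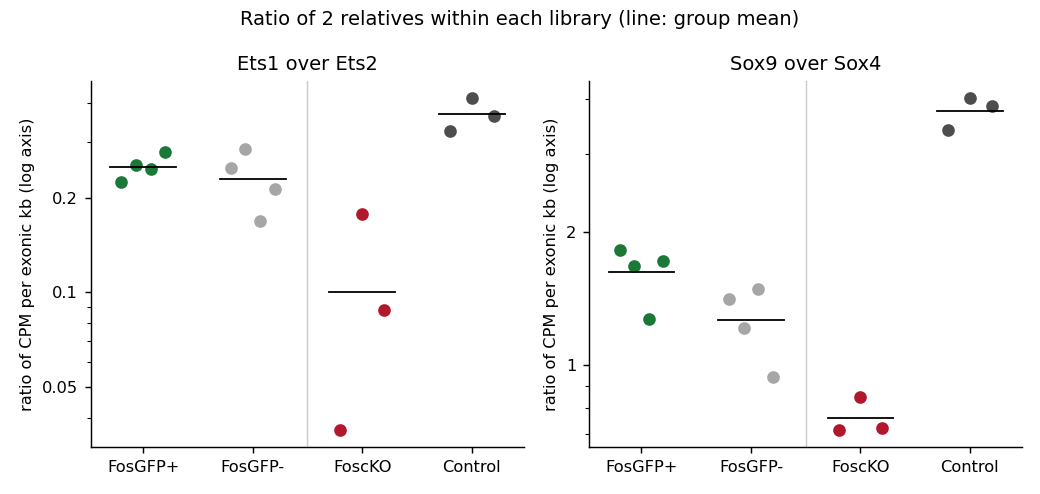
Ratio of Ets1 to Ets2 and of Sox9 to Sox4 within each library, in CPM per exonic kb on log axes, with the group mean as a line (FosGFP+ and FosGFP-, n = 4 each; FoscKO and Control, n = 3 each). Both ratios overlap between FosGFP+ and FosGFP- and are lower in every FoscKO library than in every Control library. Ets1 and Sox9 were selected for being lower in FoscKO, which made that likely.

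The promoter of Sox4 is shown because it was called in the reporter comparison and has another makeup than that of Hmga1. It is the RefSeq window chr13:28953700-28953949 (GRCm38.p6) on the minus strand, with its last 14 bases inside the GENCODE gene, and CCAAT boxes on either strand are in capitals.
Sox4: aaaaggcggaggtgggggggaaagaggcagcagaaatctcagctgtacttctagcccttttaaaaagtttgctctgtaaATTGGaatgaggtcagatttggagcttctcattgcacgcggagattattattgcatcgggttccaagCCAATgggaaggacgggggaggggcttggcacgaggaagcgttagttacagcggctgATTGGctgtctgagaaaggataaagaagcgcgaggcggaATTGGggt
The window held 4 CCAAT boxes, where 33.9% of all windows hold at least 1, with 0 GC boxes and 0 AP-1 motifs. The window of Ets2, which lies wholly inside the GENCODE gene and is not printed, held 1 GC box and 0 AP-1 motifs. Windows were found for 4 of the 7 genes, and none of the 4 held TGANTCA. Ets1, Sox9 and Tcim were not matched.

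Of the other 7 tested SOX genes, 1 was called higher in FosGFP+ and 0 lower, near the 10.3% and 1.85% of all genes. Sox11, a SOXC factor like Sox4, averaged 90.9 ± 32.7 CPM in FosGFP+ and 37.3 ± 9.77 CPM in FosGFP- (SD, n = 4 each; log2 fold change 1.29 ± 0.27 (SE), edgeR adjusted p = 0.0043). Sox8, of the same branch as Sox9, averaged 22.1 ± 9.28 CPM in FosGFP+ and 48.5 ± 28.4 CPM in FosGFP-, with overlapping libraries (adjusted p = 0.0683). Sox5, lower without overlap like 6.45% of all genes, averaged 22.1 ± 4.33 CPM in FosGFP+ and 33.8 ± 5.13 CPM in FosGFP- (SD, n = 4 each; adjusted p = 0.113). Sox5 and Sox8 were called lower, and Sox11 still higher, when scaled by total counts (adjusted p = 0.0187, 0.0168 and 0.0230 by edgeR). Sox6 averaged 30.1 CPM in FosGFP+ and 25.7 CPM in FosGFP- (adjusted p = 0.615).

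Of the other 8 SOX genes tested in FoscKO over Control, 1 was higher and 1 lower without overlap, where 5.75% and 6.47% of all genes were. Sox11 was the lower one, at 34.7 ± 3.83 CPM in FoscKO and 59.9 ± 11.8 CPM in Control (log2 fold change -0.79 ± 0.26, edgeR adjusted p = 0.710). Sox8 was higher without overlap, at 65.5 ± 27.4 CPM in FoscKO and 39.2 ± 0.710 CPM in Control (SD, n = 3 each; edgeR adjusted p = 0.844). Neither was called. The libraries of Sox11 were thus apart in the same directions as those of Sox9, and those of Sox8 were apart in FoscKO and Control the other way.

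Genes that SOX9 drives in cartilage, most of them matrix collagens and their partners, showed 0 calls by edgeR in both comparisons, and DESeq2 called 1 lower in FosGFP+ over FosGFP-. Of 13 tested, 12 had a log2 fold change below 0 in FosGFP+ over FosGFP-, with a median of -0.95 against -0.18 over all genes, and 5 were lower without overlap, where 6.45% of all genes were. Col11a1 averaged 15.9 ± 5.40 CPM in FosGFP+ and 22.1 ± 2.28 CPM in FosGFP- (SD, n = 4 each; edgeR adjusted p = 0.312). Chad, a cartilage matrix gene also found in tendon, averaged 13.0 ± 24.1 CPM in FosGFP+ and 59.7 ± 97.1 CPM in FosGFP- (SD, n = 4 each), the spread being larger than the means. Only 4 of the 13 had a summed count above 2 times the even background, which was itself a larger share of the FosGFP- libraries. With total counts 4 of the 13 were called lower and with TMM from genes of at least 50 CPM 9 were, and with the background subtracted 0 of 7. For FoscKO over Control, 12 were tested, and only 3 of the 12 had a summed count above 2 times the even background. Of the 12, 1, Col11a2, named after its values were seen, was lower without overlap, near the 6.47% of all genes (3.28 CPM in FoscKO and 6.52 CPM in Control). The median was -0.27 against -0.04 over all genes, and -0.10 without FoscKO replicate 1.

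Tcim is a small gene of 1 exonic stretch of 1805 bases. It was at 273, 403, 352 and 379 CPM in FosGFP+, against 107, 101, 128 and 119 CPM in FosGFP-. It was at 133, 101 and 105 CPM in FoscKO, against 321, 301 and 252 CPM in Control. No libraries overlapped in either dataset. The log2 fold changes that selected it were 1.63 ± 0.18 for FosGFP+ over FosGFP- and -1.37 ± 0.25 for FoscKO over Control. Per exonic kb it was the most abundant of the 7 genes in FosGFP+ (195 ± 31.3 CPM per kb), FosGFP- (63.2 ± 6.72) and Control (161 ± 19.7), and in FoscKO (62.5 ± 9.52) it was second to Ets2 (133 ± 74.2). Its libraries overlapped with those of the next gene below in FosGFP-, FoscKO and Control, but not in FosGFP+. An opposite-strand gene, Gm26714, covers 18.7% of its exonic length and had 0 to 7 counts per library.

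Of 14 tested genes of the Wnt pathway and its readout, 1 was called higher in FosGFP+ and 0 lower, no more than the 10.3% and 1.85% of all genes, with a median of -0.42 against -0.18 over all genes. Ctnnb1, which encodes beta-catenin, averaged 513 ± 60.2 CPM in FosGFP+ and 280 ± 22.9 CPM in FosGFP- (SD, n = 4 each; log2 fold change 0.87 ± 0.16 (SE), edgeR adjusted p = 0.0023, but 0.121 when scaled on genes of at least 50 CPM). Cby1, the partner of TCIM in human cells and named for that, averaged 5.14 ± 1.99 CPM in FosGFP+ and 11.0 ± 3.84 CPM in FosGFP- (SD, n = 4 each; log2 fold change -1.10 ± 0.42 (SE), edgeR adjusted p = 0.104). The target Ccnd1 averaged 27.8 CPM in FosGFP+ and 35.2 CPM in FosGFP- (adjusted p = 0.443), and the DNA-binding partners Tcf7l1 and Tcf7l2 had adjusted p-values of 0.560 and 0.802. For FoscKO over Control, 0 of 14 were called and 1, Axin2, named after its values were seen, was lower without overlap at 3.81 CPM in FoscKO and 6.98 CPM in Control, near the 6.47% of all genes. Cby1 averaged 13.6 CPM in FoscKO and 11.8 CPM in Control (adjusted p = 0.958).

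The let-7 axis, of which Hmga2 is the classic target, had 1 of 6 other tested genes called higher in FosGFP+ and 0 lower, where 10.3% and 1.85% of all genes were. Between FoscKO and Control, 2 of 6 were lower without overlap, Igf2bp2 and Lin28b, where 6.47% of all genes were. Igf2bp2, an RNA-binding protein gene that HMGA2 activates in muscle progenitors, averaged 189 ± 47.6 CPM in FosGFP+ and 48.2 ± 13.2 CPM in FosGFP- (SD, n = 4 each; log2 fold change 1.97 ± 0.24 (SE), edgeR adjusted p = 1.61e-04). It averaged 49.2 ± 3.94 CPM in FoscKO and 66.3 ± 3.95 CPM in Control without overlap (SD, n = 3 each; log2 fold change -0.43 ± 0.24 (SE), edgeR adjusted p = 0.914). Hmga2 itself was at background in those libraries. Lin28b averaged 9.48 CPM in FosGFP+ and 17.5 CPM in FosGFP- (adjusted p = 0.136), and 8.35 ± 3.71 CPM in FoscKO and 14.5 ± 1.52 CPM in Control (SD, n = 3 each; edgeR adjusted p = 0.914). Igf2bp1 had an adjusted p of 0.391 for FosGFP+ over FosGFP- and Igf2bp3 of 0.458.

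**Figure D5:**
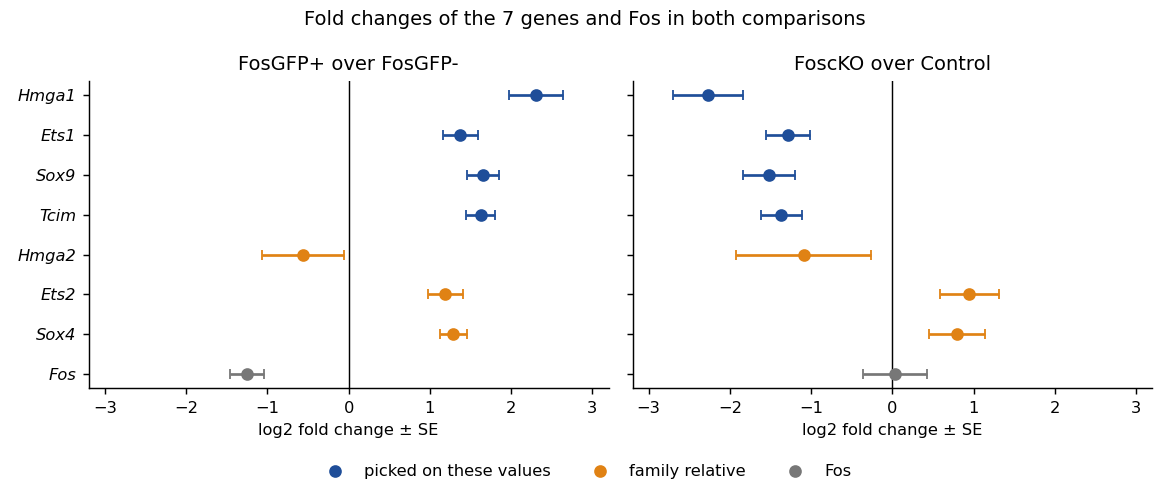
Log2 fold change with its SE (bars) of the 7 genes and Fos in FosGFP+ over FosGFP- (left) and in FoscKO over Control (right). The genes in blue were selected on both values, between 1.37 and 2.31 on the left and between -2.27 and -1.29 on the right, while Ets2 and Sox4 lie above 0 on both sides.

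The 4 picked genes stand in a small set. The authors' deposited tables, with the sign turned since their fold changes run the other way, list 2917 genes higher in FosGFP+ and 27 lower in FoscKO, and 19 genes are in both, which is 0.651% of the first list and 70.4% of the second. For scale, edgeR called 10.3% of all tested genes higher in FosGFP+ here, and the authors' share over all genes they tested is not known. Their second list also holds 42 genes higher in FoscKO, whose overlap with the first list was not counted. Hmga1, Ets1, Sox9 and Tcim are among the 19, as the way they were picked made likely. In the authors' deposited table of the first comparison Ets2 (log2 fold change 1.22) and Sox4 (1.36) are listed as well, and in that of the second neither is. By libraries that do not overlap, 153 genes were higher in FosGFP+ and lower in FoscKO of 19820 tested in both, which is 5.76% of the 2658 and 12.5% of the 1227 such genes of each comparison. Neither share is above that of all genes, 6.47% lower in FoscKO and 12.9% higher in FosGFP+ without overlap.

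Genes with the most similar pattern were sought over the 14 libraries, by Pearson's correlation of log2(CPM + 1) centred on each table, among 13632 genes. Because the picked genes were selected on the same groups, the values mainly rank genes by how they follow those groups. For Hmga1 the nearest were Fosl1 (r = 0.979), Galnt15 (0.969) and Sox9 (0.956). For Sox9 they were Fosl1 (0.982), Sgk1 (0.979) and Tuba1c (0.969), and for Tcim they were Tuba1c (0.978), Fosl1 (0.971) and Myod1 (0.969). Ets1 had other neighbours, Rdh10 (0.956), Sgms2 (0.949) and Asb5 (0.948). Fosl1 encodes the AP-1 subunit FRA1 and averaged 959 ± 86.7 CPM in FosGFP+ and 251 ± 73.4 CPM in FosGFP- (SD, n = 4 each). It averaged 204 ± 48.7 CPM in FoscKO and 699 ± 133 CPM in Control (SD, n = 3 each). Myod1, the gene of the myogenic factor MyoD, averaged 1766 ± 137 CPM in FosGFP+ and 461 ± 154 CPM in FosGFP- (SD, n = 4 each), and 454 ± 65.4 CPM in FoscKO and 1315 ± 351 CPM in Control (SD, n = 3 each). The levels of separate tables are only set side by side here.

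The genes lie apart in the genome (GRCm38): Tcim at chr8:24437180-24438984, Ets1 at chr9:32636221-32757820, Hmga2 at chr10:120361275-120476469, Sox9 at chr11:112782224-112787760, Sox4 at chr13:28948919-28953713, Ets2 at chr16:95702075-95721051 and Hmga1 at chr17:27556497-27563674. Hmga2, Sox4 and Tcim are on the minus strand and the others on the plus strand. Their Ensembl identifiers are ENSMUSG00000056313 for Tcim, ENSMUSG00000032035 for Ets1, ENSMUSG00000056758 for Hmga2, ENSMUSG00000000567 for Sox9, ENSMUSG00000076431 for Sox4, ENSMUSG00000022895 for Ets2 and ENSMUSG00000046711 for Hmga1.

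Replicate 1 was the highest library of its group for Sox9, Tcim, Hmga1, Ets2 and Sox4 in both FoscKO and Control, while Ets1 was lowest of FoscKO in that replicate and Hmga2 was lowest in it in both groups. Marker sums of mature fibres were 372 to 1438 CPM in FoscKO and 1236 to 2518 CPM in Control. Of the 8 fibre markers, 0 had a log2 fold change above 0 and 3 were lower without overlap, where 6.47% of all genes were. Marker sums of smooth muscle and pericytes were 403 to 1040 CPM in FoscKO and 223 to 501 CPM in Control. Of these 7 markers, 4 had a log2 fold change above 0 and 0 were higher without overlap, where 5.75% of all genes were. Their median was 0.00 against -0.04 over all genes, and 0.07 without FoscKO replicate 1. In FosGFP+ over FosGFP-, 1 of the 7 was above 0 and 1 was called lower by edgeR, where 1.85% of all genes were. Marker sums of fibro-adipogenic progenitors were 1991.4 to 2860.5 CPM in FosGFP+, 1261.8 to 3034.1 CPM in FosGFP-, 3058 to 5722 CPM in FoscKO and 3147 to 4347 CPM in Control. Of 7 tested, 2 had a log2 fold change above 0 in FosGFP+ over FosGFP- and 1 was called lower by edgeR (1.85% of all genes). The median there was -0.82 against -0.18 over all genes. For FoscKO over Control 5 of 7 were above 0, with a median of 0.43 against -0.04, and 0.33 without FoscKO replicate 1. The part of these cell types in the levels above was not tested.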

How the data were processed

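Raw counts by Ensembl gene were deposited by the authors in 2 tables, and their own comparisons in 2 others, with log2 fold changes (signs turned here) and adjusted p-values. A further 14 per-library columns match no label and were not used. Libraries were made with SMART-Seq v4, which keeps no strand, and Nextera XT, per the labels' protocols. GRCm38, limma, DESeq2 1.20.0, HTSeq 0.6.1 and STAR 2.5.0c are named in the submitters' processing notes. Lines naming no gene held 69.8% to 89.7% of reads and were left out. Names and exons came from GENCODE M21, which held 49326 of 49671 gene identifiers. Each table was fitted apart by edgeR 4.0.16 (R 4.3.3; filterByExpr, TMM, robust quasi-likelihood F-test, two-sided, no covariate), with Benjamini-Hochberg adjustment over all genes and calls under 0.05. The even background is reads per exonic kb over 1956 receptor genes. Alternatives used limma 3.58.1 and DESeq2 1.42.0, and the scripts were tested on simulated data. The genes and the gene lists were chosen with earlier results of these data known. Named genes are the 7, Fos, up to 4 per list (called first, then by level) and the 3 nearest patterns. A gene of a list is not reported here.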

Additional observations from a re-analysis of the deposited data

How the results depend on the processing

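Hmga1, Ets1, Sox9, Tcim, Hmga2, Ets2 and Sox4 kept their direction in every alternative that gave a value, and Ets2 and Sox4 stayed called in FosGFP+ over FosGFP- in all 17 (highest adjusted p 0.0171 and 0.0048). TMM from genes of at least 50 CPM shifted all genes by a median of -0.59, and the log2 fold changes became 1.75 for Hmga1, 0.80 for Ets1, 1.07 for Sox9, 1.02 for Tcim, 0.62 for Ets2 and 0.70 for Sox4. In that comparison 2508 genes were called, 2125 higher and 383 lower, against 6019 (712 higher, 5307 lower) with that scaling, 3116 (1029 higher, 2087 lower) with total counts, 1656 with the background subtracted and 1892 to 2566 with 1 library left out. In FoscKO over Control the 0 calls became 46 with total counts, 44 with TMM from genes of at least 50 CPM, 17 with the background subtracted, 131 with no filter, 35 with genes of at least 5 CPM, 6 with limma-voom, 74 with DESeq2 and 0 to 43 with 1 library left out, the 43 without FoscKO replicate 1. The log2 fold change of Fos there turned from 0.03 to -0.28 with total counts and with TMM from genes of at least 50 CPM, -0.17 with the background subtracted, -0.11 at 5 CPM, -0.13 with limma-voom and -0.13 with the replicate block, and ran from -0.56 to 0.33 with 1 library left out. The cause was not tested. The replicate block gave 2280 and 43 calls. Same-numbered libraries correlated at -0.01 to 0.03 and at -0.05 to 0.22, and differently numbered ones reached 0.17 and 0.23. Whether the numbers pair the libraries cannot be decided from these values. Hmga2 gave no value with the background subtracted or at 5 CPM, where it was filtered out, and its FoscKO value ran from -2.28 to -0.53 with 1 library left out. Hmga2 did not rise clearly above the even background in any group. Hmga1 stood at 1.24 to 6.44 times its background in FosGFP- and 1.95 to 5.70 times in FoscKO.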
